A study of Rattus norvegicus with 17 samples.

Results

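Long stretches of acetylated chromatin that held no Brg1 peak at any stage were described in mature oligodendrocytes (mOL), the glia that wrap axons of the central nervous system in myelin. Peaks of histone H3 acetylated at lysine 27 (H3K27Ac) from mOL were joined into domains wherever the gap between them was at most 12.5 kb, and domains of 20 kb or more were called long. Of 17186 mOL domains, 831 were long, and 368 of these (44.3%) overlapped no Brg1 peak of any of the 3 stages. These are called Brg1-free domains below, and the other 463 long domains are called Brg1-holding. The domains were chosen by the positions in the mOL H3K27Ac list and the 3 Brg1 lists, so length, mOL acetylation and Brg1 are given as descriptions with no test.

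The lists came from chromatin immunoprecipitation with sequencing (ChIP-seq) in wild-type primary cells of Sprague-Dawley rats, isolated from cortex on postnatal day 2. All were grown after isolation in a medium with PDGF-AA at 10 ng/ml and bFGF at 20 ng/ml, and oligodendrocyte precursor cells (OPC) are the group labelled as mitogen-treated. Immature oligodendrocytes (iOL) and mOL are labelled as T3-treated, and the differentiation medium held 15 nM T3, a thyroid hormone, and 10 ng/ml CNTF, a neurotrophic cytokine. Each target and stage had 1 library, RNA polymerase II (RNAPII) was mapped in OPC and iOL, and no p-value between stages can be given. Positions are in rat build rn4, for which no gene annotation or genome sequence was used, so regions are named by position, and the cell stages could not be checked against marker genes.

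H3K27Ac marks active enhancers and promoters, and clusters of such peaks are often used to pick out large regulatory regions of a cell type. H3K4me3, trimethylated lysine 4 of the same histone, sits at promoters, and H3K9me3 in silenced chromatin. Brg1 is the ATPase of the BAF complex, which moves nucleosomes and opens chromatin, and Olig2 is a basic helix-loop-helix factor that specifies the oligodendrocyte lineage and recruits such complexes.

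The lists differed widely in length. Brg1 had 452 OPC, 5465 iOL and 4378 mOL peaks, and the later lists therefore did most of the sorting of domains. Among Brg1-holding domains, 45 held an OPC, 359 an iOL and 369 an mOL Brg1 peak, and 155 held just 1 Brg1 peak over the 3 lists. The mOL H3K27Ac list held 35268 peaks, 1.84 times as many as the OPC list, and the Olig2 lists ranged from 2759 peaks in mOL to 25787 in iOL. The files carry positions alone, which leaves library depth unknown, and depth and occupancy cannot be told apart as sources of a longer list. Percentages are given with exact Clopper-Pearson 95% intervals over domains or peaks, which cover counting error in these lists and no difference between cultures.

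The Brg1-free domains spanned 10.7 Mb in all and took in 2429 peaks, 6.89% of the mOL H3K27Ac list. Their median length was 25514.5 bp, with quartiles of 22114 and 32847 bp and a longest domain of 84414 bp. In all, 257 were under 30 kb and 43 were 40 kb or more. A domain was made of a median of 6 acetylated peaks, from 3 to 22, and its widest peak had a median width of 2108 bp and a median of 31.3% of the acetylated bases of the domain. The Brg1-holding domains were longer, with a median of 29670 bp, and their widest peak had a median of 3058 bp.

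The thresholds cut through a continuous range. The 3 shortest Brg1-free domains on placed chromosomes, chr1:201416288-201436323, chr1:96168042-96188087 and chr17:22093199-22113255, measured 20036, 20046 and 20057 bp. The 3 longest Brg1-free domains just under the limit measured 19959, 19951 and 19929 bp. On the side of Brg1, the nearest peak of any stage lay at a median of 123546 bp from a Brg1-free domain. It lay within 10000 bp of 8 domains, within 50000 bp of 90 and within 100000 bp of 158 of the 368. The closest were chr2:199013307-199035267 with a Brg1 peak 565 bp away, chr10:62068200-62099545 at 1035 bp and chr10:86551783-86577217 at 1416 bp.

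The first comparison asked how far these mOL domains were already acetylated at the earlier stages. Most carried some earlier acetylation but less of it. An OPC H3K27Ac peak was found in 327 of the 368 Brg1-free domains (88.9%, 85.2 to 91.9), where all long domains gave 90.4%, and an iOL peak in 352 (95.7%, 93.04 to 97.5), where all long domains gave 96.9%. Both stages had a peak in 319 domains, and 8 had neither. Acetylated sequence covered a median of 10.9% of the length of a Brg1-free domain in OPC, 13.2% in iOL and 25.4% in mOL, where the mOL value is raised by the way the domains were chosen. Counting at each stage only its 19130 widest H3K27Ac peaks, over the same domains, the medians were 10.9, 12.5 and 19.7%.

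The order of the stages was not the same in every domain. Acetylated bases were fewest in OPC, more in iOL and most in mOL in 237 Brg1-free domains (64.4%, 59.3 to 69.3) and 341 Brg1-holding ones (73.7%, 69.4 to 77.6), where all long domains gave 69.6%. OPC exceeded iOL in 28.5% (24.0 to 33.4) of Brg1-free and 21.8% (18.1 to 25.9) of Brg1-holding domains, where all long domains gave 24.8%. OPC exceeded mOL in 8 Brg1-free domains (2.17%, 0.943 to 4.24) and 6 Brg1-holding ones (1.30%, 0.477 to 2.80), with overlapping intervals. The mOL list chose the domains, so these counts are a description. Joined by the same rule, the acetylation of OPC already formed a domain of 20 kb or more over 98 of the Brg1-free domains (26.6%, 22.2 to 31.5), where all long domains gave 24.2%. In iOL it did so over 122 (33.2%, 28.4 to 38.2), where all long domains gave 36.6%. At both stages it did so over 74 Brg1-free (20.1%, 16.1 to 24.6) and 85 Brg1-holding domains (18.4%, 14.9 to 22.2). The shares with such a domain in OPC or in iOL lie near those of all long domains, which include the Brg1-free ones.

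Among Brg1-holding domains the median covered was 10.0% in OPC, 16.3% in iOL and 32.2% in mOL. The median intervals of the 2 classes overlapped in OPC, at 9.50 to 12.4% and 9.26 to 11.4%, and did not in iOL, at 12.3 to 14.7% and 14.9 to 17.2%. Neither earlier list differed in presence between the classes past the threshold (odds ratio 0.734, 0.462 to 1.16, adjusted p = 0.211 in OPC, and 0.486, 0.218 to 1.08, adjusted p = 0.126 in iOL, by Fisher's exact test over domains with Benjamini-Hochberg adjustment over 13 lists). Within presence of mOL H3K4me3 both were past it, at 0.466 in OPC and 0.333 in iOL. The iOL odds ratio was past it also at a minimum of 15 kb (0.402), with gaps of up to 20000 bp (0.618) and with the wider peaks of each list (0.408). The OPC odds ratio turned above 1 with gaps of up to 5000 bp (1.68) or 20000 bp (1.01) and with the widest mOL acetylated peaks only (1.24).

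**Figure D1:**
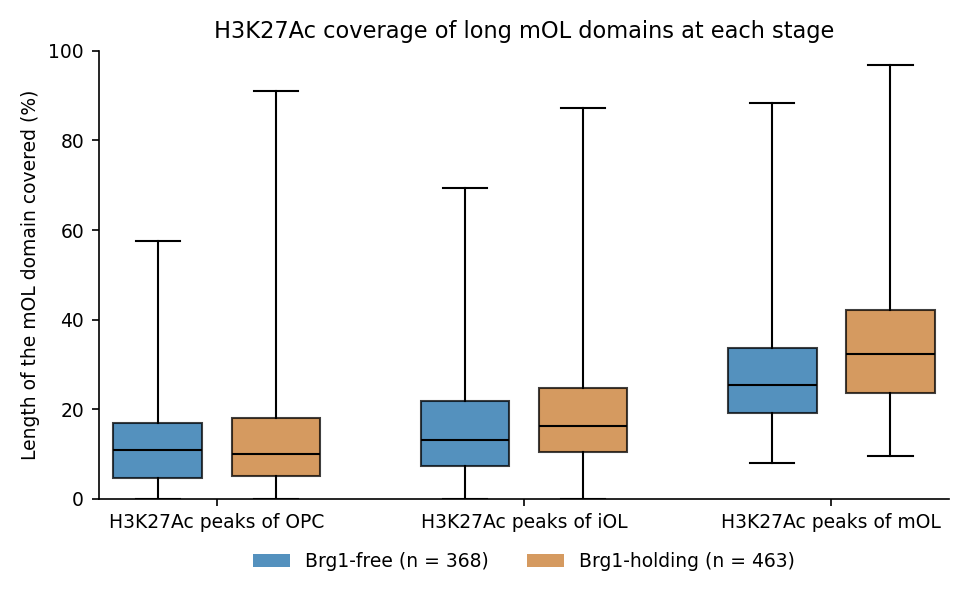
Share of the length of each long mOL domain covered by H3K27Ac peaks of OPC, iOL and mOL (y axis, percent), for the 368 Brg1-free and 463 Brg1-holding domains. Boxes span the quartiles with a line at the median, and whiskers reach the lowest and highest domain. Brg1-free medians were 10.9, 13.2 and 25.4%.

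Single domains show the ends of this range. The domain chr4:157461881-157509077, 47197 bp long, held 0 OPC, 4 iOL and 13 mOL H3K27Ac peaks, covering 0, 5526 and 29192 bp, and it had no H3K4me3 peak at any stage. In chr12:9949231-10021986, 72756 bp long and the second longest Brg1-free domain, the covered bases were 0 in OPC, 1758 in iOL and 29334 in mOL. Its H3K4me3 was called only in mOL, as 2 peaks of at most 809 bp. The other domains with no OPC acetylation that were singled out, chr7:10255717-10304189, chr1:262127595-262169315 and chr4:82466496-82505928, had 10416, 7185 and 14179 acetylated bp in mOL. These 5 were the longest Brg1-free domains on placed chromosomes without any OPC H3K27Ac.

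At the other end, the OPC acetylation was as wide as that of mOL. In chr12:23677998-23698548 the covered bases were 3747 in OPC, 4805 in iOL and 3038 in mOL, and in chr3:157212962-157236069 they were 6678, 6990 and 5456. The OPC to mOL ratio was 1.23 in the first and 1.22 in the second, the highest of the class. The median ratio over Brg1-free domains was 0.435, and it was 0.8 or more in 57 of them (15.5%, 11.9 to 19.6). Among Brg1-holding domains that count was 32 (6.91%, 4.78 to 9.62), and the median ratio was 0.341. The ratio uses the mOL list that chose the domains, so this contrast was not tested.

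H3K4me3, the promoter mark, was found in most Brg1-free domains and in more of them than of the Brg1-holding ones. An mOL H3K4me3 peak lay in 306 of 368 Brg1-free domains (83.2%, 78.9 to 86.8) and in 299 of 463 Brg1-holding domains (64.6%, 60.0 to 68.9), where all long domains gave 72.8%. The odds ratio was 2.71 (1.94 to 3.78), with an adjusted p of 6.08e-09 by Fisher's exact test over domains. In OPC the counts were 268 (72.8%, 68.0 to 77.3) and 254 (54.9%, 50.2 to 59.5), where all long domains gave 62.8%, an odds ratio of 2.21 (1.64 to 2.96) and an adjusted p of 2.60e-07 by the same exact test. In iOL they were 272 (73.9%, 69.1 to 78.3) and 256 (55.3%, 50.6 to 59.9), where all long domains gave 63.5%, an odds ratio of 2.29 (1.70 to 3.08) and an adjusted p of 8.11e-08. The exact test counts domains of these lists and says nothing of other cultures.

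The gap in H3K4me3 was widest, by its point estimate, in the shortest of the long domains. From 20 to 30 kb an mOL H3K4me3 peak lay in 83.7% (78.6 to 88.0) of 257 Brg1-free and 55.5% (48.9 to 61.96) of 236 Brg1-holding domains. Between 30 and 40 kb, 77.9% (66.2 to 87.1) of 68 Brg1-free and 72.2% (62.8 to 80.4) of 108 Brg1-holding domains had one. At 40 kb or more the percentages were 88.4% (74.9 to 96.1) of 43 Brg1-free and 75.6% (66.9 to 83.0) of 119 Brg1-holding domains. With domains of 30 kb or more alone, the odds ratios were 1.396, 1.66 and 1.60 for OPC, iOL and mOL, with adjusted p of 0.410, 0.130 and 0.286 by Fisher's exact test. With gaps of up to 5000 bp, which left 37 Brg1-free domains, the odds ratios of 2.48, 2.36 and 2.17 were not past the threshold either. Whether the odds ratio differs between length classes was not tested.

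Brg1-free domains also carried more H3K4me3 peaks each. There were 9.33 mOL H3K4me3 peaks per 100 kb of Brg1-free domain and 4.73 per 100 kb of Brg1-holding domain. Of the Brg1-free domains, 242 (65.8%) held 2 or more mOL peaks of the mark, against 219 (47.3%) of the Brg1-holding ones. The widest mOL H3K4me3 peak of a domain was narrower in the Brg1-free class, with a median of 1770.5 bp (1690 to 1897) over the 306 domains with the mark, against 2070 bp (1981 to 2267) over 299. An mOL H3K4me3 peak of 3000 bp or more was present in 30 Brg1-free domains (8.15%, 5.57 to 11.4) and in 76 Brg1-holding ones (16.4%, 13.2 to 20.1), where all long domains gave 12.8%. These numbers per domain and widths were not tested.

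**Figure D2:**
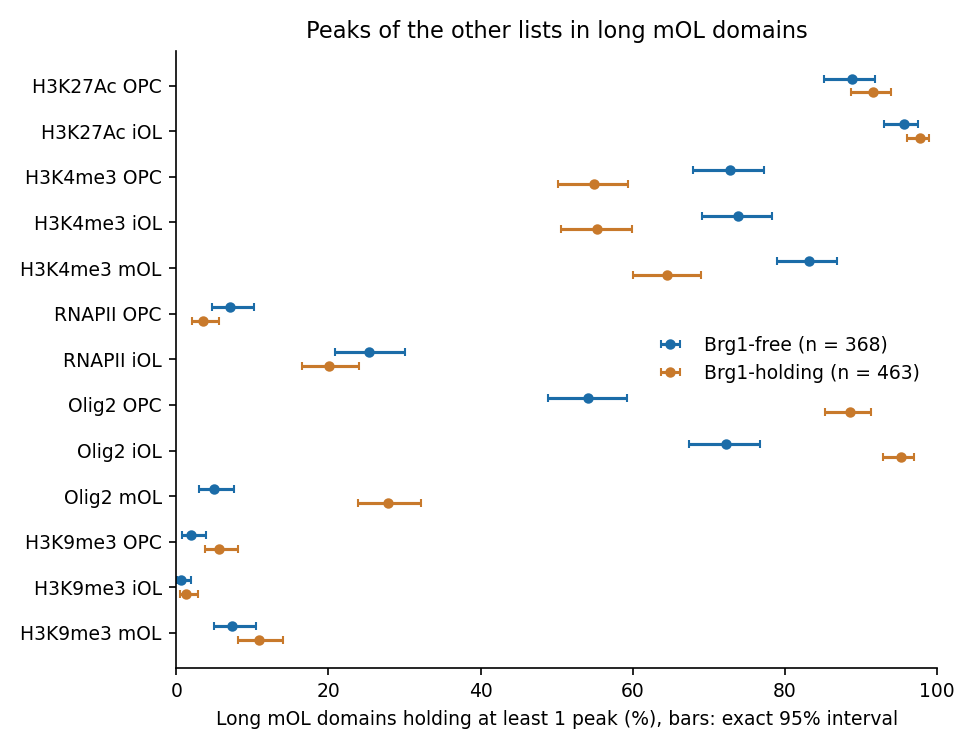
Share of long mOL domains that hold at least 1 peak of each of the 13 lists not used to choose them (x axis, percent), for 368 Brg1-free and 463 Brg1-holding domains. Points are shares and bars exact 95% intervals. The H3K4me3 shares are higher and the Olig2 shares lower in the Brg1-free class at each stage.

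Most Brg1-free domains held an H3K4me3 peak somewhere already in OPC. Of their single mOL acetylated peaks with mOL H3K4me3, 68.8% (65.9 to 71.65) met OPC H3K4me3. In Brg1-holding domains 65.3% (61.8 to 68.6) of such peaks did. The shares of domains that follow are over all of them, with or without the mark. H3K4me3 was called at all 3 stages in 262 Brg1-free domains (71.2%, 66.3 to 75.8) and 53.6% (48.9 to 58.2) of Brg1-holding ones, where all long domains gave 61.4%. It was called only in mOL in 29 Brg1-free domains (7.88%, 5.34 to 11.1) and 7.99% (5.69 to 10.8) of Brg1-holding ones, where all long domains gave 7.94%, so that share was close in both. It was called at no stage in 61 Brg1-free domains (16.6%, 12.9 to 20.8), where all long domains gave 27.1%. No domain had it in OPC alone, for which the exact upper limit over 368 domains is 0.997%, and a floor of 3 domains is 0.815%. Nearly all H3K4me3 peaks inside lay on mOL acetylation, 953 of the 997 mOL peaks (95.6%, 94.1 to 96.8). In Brg1-holding domains 736 of 774 did (95.1%, 93.3 to 96.5). Both shares are raised by the choice of domains.

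The 61 Brg1-free domains without H3K4me3 had lower medians of earlier acetylation than the rest. OPC acetylation covered a median of 2.58% (0 to 5.41) of their length and iOL acetylation 5.62% (3.64 to 9.12). In the 307 domains with H3K4me3 at some stage the medians were 12.5% (11.0 to 13.4) and 14.2% (13.1 to 16.1). In mOL the medians were 24.7% (21.4 to 27.8) and 25.6% (23.8 to 26.8). The OPC intervals of these classes do not overlap, nor do the iOL intervals, and no test was run on them. The mOL list chose all of these domains, so its coverage is a description. No contrast between it and the earlier stages is drawn. Brg1-holding domains showed a split in the same direction, with medians of 6.74% without and 12.7% with H3K4me3 in OPC, and 14.1% and 17.2% in iOL. A Brg1 peak of any stage also lay nearer to domains without H3K4me3, at a median of 51026 bp (39112 to 66272) against 153881 bp (118414 to 173711).

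The same split was seen at single acetylated peaks. Of the 2429 mOL H3K27Ac peaks in Brg1-free domains, 1013 (41.7%, 39.7 to 43.7) met mOL H3K4me3. Those peaks met OPC H3K27Ac in 75.5% (72.7 to 78.1) and iOL H3K27Ac in 79.96% (77.4 to 82.4) of cases. The 1416 peaks without mOL H3K4me3 met it in 28.9% (26.5 to 31.3) and 40.7% (38.2 to 43.4). In Brg1-holding domains OPC H3K27Ac was met by 75.5% (72.3 to 78.5) of peaks with and 30.4% (28.7 to 32.1) without mOL H3K4me3, much as in Brg1-free ones. There 21.1% (19.8 to 22.5) of 3706 acetylated peaks met mOL H3K4me3. Of the 2828 among them that met no Brg1, 23.7% (22.2 to 25.3) did, and of the 878 that met Brg1, 12.8% (10.6 to 15.1) did. Peaks of 1 domain are neighbours and not independent, so the intervals over peaks are too narrow.

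In the domains with most mOL H3K4me3 peaks, the mark recurred along the length. The domain chr17:50319029-50361873, 42845 bp long, held 12 OPC, 5 iOL and 13 mOL H3K4me3 peaks, 2 RNAPII peaks in iOL and no Olig2 peak at any stage. It had 11, 11 and 18 H3K27Ac peaks from OPC to mOL. Next came chr7:123646300-123704126 with 5, 5 and 12 H3K4me3 peaks from OPC to mOL and chr7:11026484-11080635 with 7, 7 and 11. In both of these the OPC acetylation was above 80% of that of mOL in bases, with ratios of 0.824 and 0.820. The domains chr7:137708558-137771765 and chr6:69209225-69236021 held 10 mOL H3K4me3 peaks each.

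RNAPII, which was mapped in OPC and iOL only, was found in a minority of Brg1-free domains. An iOL RNAPII peak lay in 93 of 368 (25.3%, 20.9 to 30.04) and in 93 of 463 Brg1-holding domains (20.1%, 16.5 to 24.0), where all long domains gave 22.4%. The odds ratio was 1.35 (0.970 to 1.87), with an adjusted p of 0.114 by Fisher's exact test over domains. In OPC the counts were 26 (7.07%, 4.67 to 10.2) and 16 (3.46%, 1.99 to 5.55), where all long domains gave 5.05%, an odds ratio of 2.12 (1.12 to 4.02) and an adjusted p of 0.0401. Compared within presence of mOL H3K4me3, the Mantel-Haenszel odds ratios were 1.69 (0.885 to 3.23) for OPC and 1.05 (0.749 to 1.48) for iOL RNAPII, neither past the threshold. The OPC call was also lost with no Brg1 within 10000 bp (1.99), at 30 kb or more (1.63) and with gaps of up to 5000 bp (2.26). The iOL odds ratio was past the threshold in 5 alternatives, at 1.48 to 1.956, among them within length classes (1.58), and it reversed with gaps of up to 5000 bp (0.668).

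RNAPII lay mostly in domains with promoter marking, in both kinds of domain. Of the 93 Brg1-free domains with iOL RNAPII, 91 also held mOL H3K4me3, where 83.2% of all Brg1-free domains held it. Of the 93 Brg1-holding domains with iOL RNAPII, 83 did, where 64.6% of all Brg1-holding domains did. OPC RNAPII was in 0 of the 62 Brg1-free domains without mOL H3K4me3, for which the exact upper limit is 5.78%, and a floor of 3 domains is 4.84%. It was in 1 of the 164 Brg1-holding domains without mOL H3K4me3. Of the 113 iOL RNAPII peaks inside Brg1-free domains, 72.6% (63.4 to 80.5) met an iOL H3K4me3 peak and 96.5% (91.2 to 99.0) an iOL H3K27Ac peak. Of the 110 inside Brg1-holding domains, 55.5% (45.7 to 64.9) met the first and 91.8% (85.0 to 96.2) the second. RNAPII was called at both stages in 18 Brg1-free domains (4.89%, 2.92 to 7.62) and 11 Brg1-holding ones (2.38%, 1.19 to 4.21), with overlapping intervals. The longest of the 18, chr7:137708558-137771765, 63208 bp long, held 2 RNAPII peaks in OPC and 5 in iOL. In chr1:211379227-211413054, 33828 bp long, 1 RNAPII peak was called at each stage beside 6, 5 and 5 H3K4me3 peaks from OPC to mOL and no Olig2. In chr17:37057295-37091024 there was 1 at each stage beside 5, 3 and 5 H3K4me3 peaks, and 3 OPC and 4 iOL Olig2 peaks. In chr7:10255717-10304189, 1 RNAPII peak was called at each stage although no OPC H3K27Ac or H3K4me3 peak was.

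Olig2 was found less often in Brg1-free than in Brg1-holding domains at each stage. In OPC an Olig2 peak lay in 199 of 368 Brg1-free domains (54.1%, 48.8 to 59.3) and 410 of 463 Brg1-holding domains (88.6%, 85.3 to 91.3), where all long domains gave 73.3%. The odds ratio was 0.152 (0.107 to 0.216), with an adjusted p of 4.22e-28 by Fisher's exact test over domains. In iOL the counts were 266 (72.3%, 67.4 to 76.8) and 441 (95.2%, 92.9 to 97.0), where all long domains gave 85.1%, an odds ratio of 0.130 (0.0801 to 0.211) and an adjusted p of 5.20e-20. In mOL they were 18 (4.89%, 2.92 to 7.62) and 129 (27.9%, 23.8 to 32.2), where all long domains gave 17.7%, an odds ratio of 0.133 (0.0795 to 0.223) and an adjusted p of 4.31e-19. Brg1 and Olig2 often lay on the same acetylated peak, as given below, so the sorting by Brg1 is not independent of Olig2.

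The Olig2 difference was present in each length class and with or without promoter marking. From 20 to 30 kb, iOL Olig2 lay in 70.0% (64.0 to 75.6) of Brg1-free and 91.9% (87.7 to 95.1) of Brg1-holding domains, and above 40 kb in 79.1% (64.0 to 89.96) and 99.2% (95.4 to 99.98). Among domains with mOL H3K4me3 the iOL shares were 69.6% (64.1 to 74.7) and 93.6% (90.3 to 96.1), and among those without it 85.5% (74.2 to 93.1) and 98.2% (94.7 to 99.6). With peaks joined only across gaps of up to 5000 bp, 37 Brg1-free domains remained, and the iOL odds ratio was 0.337 with an adjusted p of 0.301.

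Olig2 was nonetheless called at some stage in 280 of the 368 Brg1-free domains. Olig2 was called in OPC and iOL but not in mOL in 170 Brg1-free domains (46.2%, 41.0 to 51.4) and 59.0% (54.3 to 63.5) of Brg1-holding ones, where all long domains gave 53.3%. It was called in iOL alone in 79 Brg1-free domains (21.5%, 17.4 to 26.0) and 8.42% (6.06 to 11.3) of Brg1-holding ones, where all long domains gave 14.2%. All 3 stages had it in 15 (4.08%, 2.30 to 6.63), against 128 Brg1-holding domains (27.6%, 23.6 to 32.0). No Olig2 at any stage was found in 88 Brg1-free domains (23.9%, 19.6 to 28.6) and 13 Brg1-holding ones (2.81%, 1.503 to 4.75), where all long domains gave 12.2%. Of those 88, 81 held mOL H3K4me3.

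**Figure D3:**
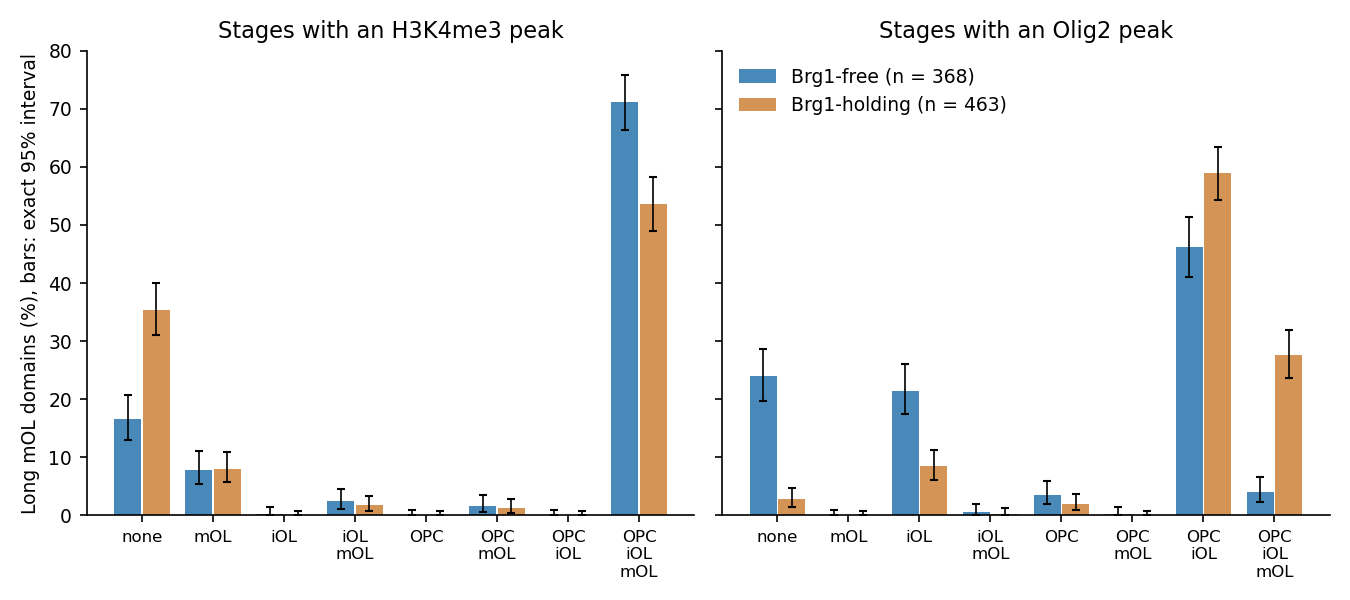
Share of long mOL domains (y axis, percent) by the stages at which an H3K4me3 peak (left) or an Olig2 peak (right) was called, for 368 Brg1-free and 463 Brg1-holding domains, with exact 95% intervals. H3K4me3 at all 3 stages is the largest class on the left, and Olig2 in OPC and iOL the largest on the right, in both kinds of domain.

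Olig2 peaks inside Brg1-free domains lay mostly on acetylated sequence without H3K4me3. Of 566 iOL Olig2 peaks there, 68.4% (64.4 to 72.2) met iOL H3K27Ac, 89.8% (87.0 to 92.1) met mOL H3K27Ac and 8.48% (6.32 to 11.1) met iOL H3K4me3. Of 341 OPC Olig2 peaks, 63.3% (58.0 to 68.5) met OPC H3K27Ac and 88.3% (84.4 to 91.5) mOL H3K27Ac. Brg1-holding domains gave a like placing. Their iOL Olig2 peaks met iOL H3K27Ac, mOL H3K27Ac and iOL H3K4me3 in 74.3, 91.1 and 5.34% of cases. Their OPC Olig2 peaks met OPC and mOL H3K27Ac in 64.9 and 92.8%. The share on mOL H3K27Ac is raised by the choice of domains.

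Over all acetylated peaks without Brg1, the share with iOL Olig2 was close in both kinds of domain. Among those without H3K4me3 it was higher in Brg1-free domains. The intervals there did not overlap, but intervals over neighbouring peaks are too narrow. Of all 2429 mOL H3K27Ac peaks in Brg1-free domains, 22.2% (20.6 to 23.9) met iOL Olig2. Of the 2828 peaks of Brg1-holding domains that themselves met no Brg1, 21.3% (19.8 to 22.8) did, and of the 878 that met Brg1, 75.4% (72.4 to 78.2) did. Among peaks without mOL H3K4me3 the share was 30.8% (28.4 to 33.3) in Brg1-free domains and 24.2% (22.4 to 26.0) at the Brg1-free peaks of Brg1-holding domains. Among peaks with mOL H3K4me3 the iOL Olig2 shares were 10.3% (8.47 to 12.3) and 12.1% (9.70 to 14.8). For OPC Olig2, peaks without mOL H3K4me3 gave 20.3% (18.2 to 22.5) and 17.8% (16.2 to 19.4), with overlapping intervals. For mOL Olig2 they gave 1.20% and 1.44%. The Brg1-bound peaks were the widest, with a median of 2033.5 bp. The median was 930 bp for the other peaks of their domains and 908 bp in Brg1-free domains. These shares were not tested, and neither was any bearing of peak width on them.

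**Figure D4:**
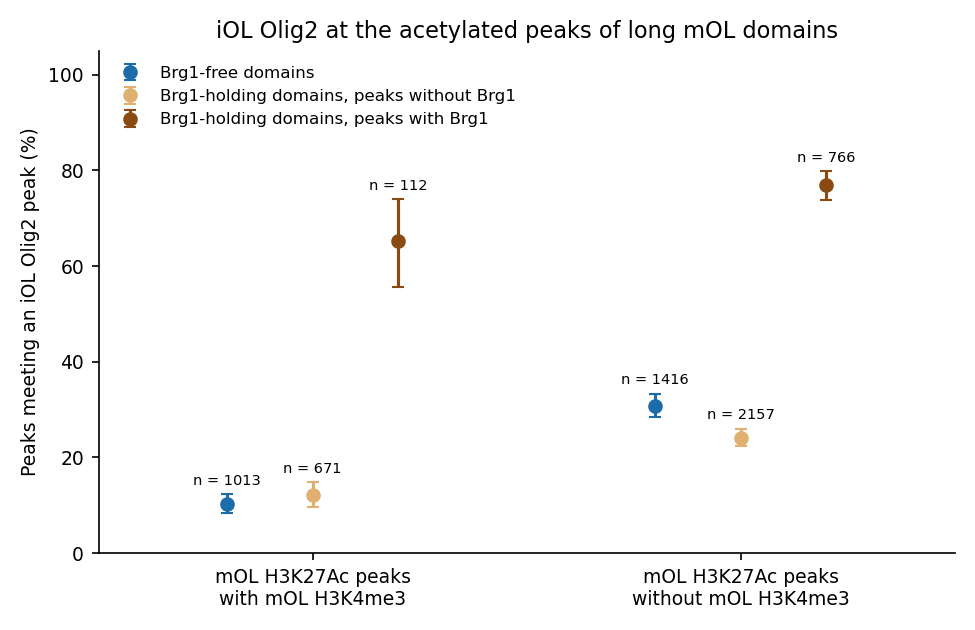
Share of mOL H3K27Ac peaks inside long domains that meet an iOL Olig2 peak (y axis, percent), split by mOL H3K4me3 (x axis) and by kind of domain and Brg1 at the peak itself. Points are shares with exact 95% intervals over peaks. With H3K4me3, peaks of Brg1-free domains (10.3%) and Brg1-free peaks of Brg1-holding domains (12.1%) have overlapping intervals, without it the first are higher (30.8 and 24.2%), and the peaks with Brg1 are highest.

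The domain richest in Olig2 was the longest one, chr12:32561874-32646287, 84414 bp long. Olig2 was called there as 6 OPC and 10 iOL peaks and no mOL peak, with 16, 18 and 22 H3K27Ac peaks covering 13516, 25551 and 31291 bp. The nearest Brg1 peak of any stage lay 43756 bp away, and H3K4me3 was called as 2, 2 and 3 peaks. Next came chr7:137708558-137771765 with 6 and 9 Olig2 peaks in OPC and iOL, and chr6:137981330-138053475, 72146 bp long, with 3, 7 and 1 from OPC to mOL. The domain chr1:84008202-84040707 held 5 Olig2 peaks in both OPC and iOL and no H3K4me3 at any stage, with 4853, 6981 and 9222 acetylated bp from OPC to mOL.

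**Figure D5:**
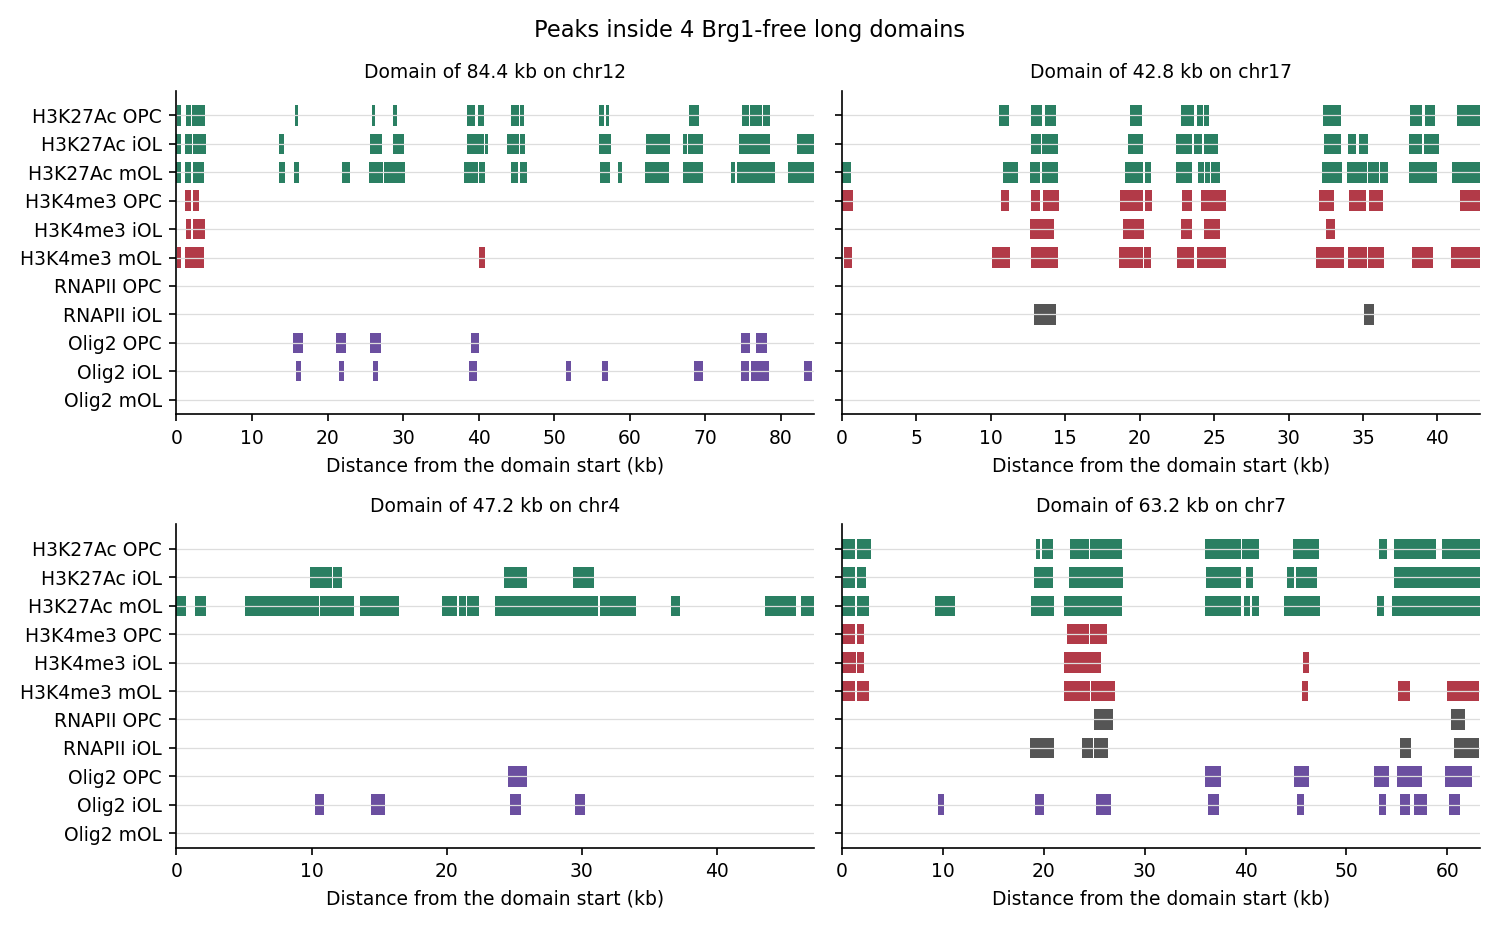
Peaks called inside 4 Brg1-free long domains on chr12, chr17, chr4 and chr7, drawn to scale (x axis, distance from the domain start in kb), with 1 row for each list of H3K27Ac, H3K4me3, RNAPII and Olig2. The domain of 84.4 kb holds 10 iOL Olig2 peaks, that of 42.8 kb holds 13 mOL H3K4me3 peaks and no Olig2, that of 47.2 kb has no OPC H3K27Ac, and that of 63.2 kb has RNAPII at both stages.

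The remaining long domains of the class mixed these features. The domains chr6:123538854-123606755 and chr2:120379417-120446317 had 15 and 10 mOL H3K27Ac peaks against 3 and 3 in OPC, and chr14:79624311-79688977 had 14 against 6. By contrast chr2:180256084-180318478, 62395 bp long, had 31548 acetylated bp in OPC, 24530 in iOL and 36836 in mOL, with 6, 4 and 7 H3K4me3 peaks. The domain chr8:112774154-112834568 had 9, 8 and 9 H3K4me3 peaks and 2 Olig2 peaks in both OPC and iOL. In chr14:89168759-89230359 the widest mOL H3K4me3 peak reached 4983 bp, beside 4 OPC and 5 iOL Olig2 peaks.

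H3K9me3, the mark of silenced chromatin, was rare inside Brg1-free domains. It was found in 7 of them in OPC (1.90%, 0.768 to 3.88), 2 in iOL (0.543%, 0.0659 to 1.95) and 27 in mOL (7.34%, 4.89 to 10.5), where all long domains gave 3.97, 0.963 and 9.27%. Against Brg1-holding domains the OPC odds ratio was 0.326 (0.140 to 0.760), with an adjusted p of 0.0126 by Fisher's exact test, and the mOL odds ratio 0.654 (0.401 to 1.07), with an adjusted p of 0.121. The iOL list gave 0.416 (0.0835 to 2.07), with an adjusted p of 0.312. The OPC call rests on few domains. It was lost at 30 kb or more (odds ratio 0.213), with the widest mOL acetylated peaks only (0.244), with the wider peaks of each list (0.352), within length classes (0.373), in the logistic model (0.420), within iOL Olig2 presence (0.431) and within quartiles of mOL acetylated bases (0.437), and with gaps of up to 5000 bp it reversed to 1.49. Of the 37 mOL H3K9me3 peaks inside Brg1-free domains, 14 (37.8%, 22.5 to 55.2) met mOL H3K27Ac. The most were in chr13:35762205-35790491, with 5 mOL H3K9me3 peaks beside 8 mOL H3K27Ac peaks and no H3K4me3.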

How the data were processed

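The 17 samples were ChIP-seq libraries with 1 file of peaks each, assigned to target and stage from their titles. Per the submitters' processing notes the tools included MACS 1.4.0 and the build was rat rn4. For aligner, peak threshold, control and pooling, nothing is stated in the labels used here. Each file the authors deposited has 3 columns, chromosome, start and end in bp, with no score or read number. Starts are given as 1-based positions.

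Long domains were built from mOL H3K27Ac peaks (gap of up to 12500 bp, length of 20000 bp or more). A peak was counted in a domain from a shared stretch of 1 bp upwards. Presence of each of 13 lists was compared between Brg1-free and Brg1-holding domains with a two-sided Fisher's exact test, Benjamini-Hochberg adjustment over the 13 lists at a threshold of 0.05, and Woolf 95% intervals. Alternatives included other gaps, lengths and overlaps, Mantel-Haenszel odds ratios within strata and a logistic model. Medians carry order-statistic 95% intervals. The members, lists and cut-offs were chosen with earlier results of these data known.

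Named regions, leaving out unplaced sequence, were the 10 longest Brg1-free domains, the 5 with most mOL H3K4me3, most Olig2 and most H3K9me3 peaks, the 5 with the lowest and the 5 with the highest ratio of OPC to mOL acetylated bases, up to 10 with RNAPII at both stages, and those next to the thresholds. The text gives a selection. No rn4 genome or annotation was used, so no gene or sequence is named. Overlap counts were checked against bedtools 2.31.1 and tested on simulated lists. Python 3.11.15, numpy 2.4.6, pandas 2.3.3, scipy 1.17.1, statsmodels 0.14.6 and matplotlib 3.10.9 were used.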

Additional observations from a re-analysis of the deposited data

How the results depend on the processing

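Over the alternatives, the odds ratios for H3K4me3 stayed above 1 (1.396 to 2.96 in OPC, 1.66 to 3.25 in iOL, 1.60 to 3.24 in mOL) and those for Olig2 below 1 (0.137 to 0.203, 0.0461 to 0.337 and 0.0680 to 0.183). The changes by setting follow, and the cause of each was not tested. Some settings also left a smaller or larger number of domains. The 4 alternatives within strata other than length and on equal lists were chosen after seeing the data. Of the odds ratios under alternatives, 134 kept their direction and side of the threshold. In the same direction, 19 were no longer past the threshold and 13 were newly past it, and 6 reversed in direction. Some settings gave no odds ratio for a list, as when the list defined the strata or a class held none. With peaks joined across gaps of up to 5000 bp, 37 Brg1-free domains were found. The median covered was 22.8% in OPC, 33.8% in iOL and 61.4% in mOL. The share of domains was 94.6% for OPC H3K27Ac, 100% for iOL H3K27Ac, 78.4% for mOL H3K4me3, 70.3% for OPC Olig2, 86.5% for iOL Olig2, 10.8% for OPC H3K9me3 and 0% for iOL H3K9me3. Odds ratios no longer past the threshold were 2.48 for OPC H3K4me3, 2.36 for iOL H3K4me3, 2.17 for mOL H3K4me3, 2.26 for OPC RNAPII, 0.337 for iOL Olig2 and 0.183 for mOL Olig2. Odds ratios reversed in direction were 1.68 for OPC H3K27Ac, 0.668 for iOL RNAPII and 1.49 for OPC H3K9me3. With gaps of up to 20000 bp, 962 Brg1-free domains were found. The median covered was 7.55% in OPC, 8.91% in iOL and 16.6% in mOL. The share of domains was 91.4% for iOL H3K27Ac, 77.5% for OPC H3K4me3, 48.8% for OPC Olig2 and 64.8% for iOL Olig2. Odds ratios newly past the threshold were 0.618 for iOL H3K27Ac, 1.69 for iOL RNAPII and 0.525 for mOL H3K9me3. An odds ratio reversed in direction was 1.01 for OPC H3K27Ac. With a minimum length of 15000 bp, 677 Brg1-free domains were found. The share of domains was 91.6% for iOL H3K27Ac, 78.3% for mOL H3K4me3, 48.4% for OPC Olig2 and 66.5% for iOL Olig2. Newly past the threshold were odds ratios of 0.402 for iOL H3K27Ac, 1.48 for iOL RNAPII and 0.587 for mOL H3K9me3. With a minimum length of 30000 bp, 111 Brg1-free domains were found. The share of domains was 98.2% for iOL H3K27Ac, 31.5% for iOL RNAPII, 67.6% for OPC Olig2, 77.5% for iOL Olig2, 0% for iOL H3K9me3 and 14.4% for mOL H3K9me3. Odds ratios no longer past the threshold were 1.396 for OPC H3K4me3, 1.66 for iOL H3K4me3, 1.60 for mOL H3K4me3, 1.63 for OPC RNAPII and 0.213 for OPC H3K9me3. An odds ratio reversed in direction was 1.42 for mOL H3K9me3. With only the 19130 widest mOL H3K27Ac peaks, 149 Brg1-free domains were found. The median covered was 15.1% in OPC, 19.7% in iOL and 32.4% in mOL. The share of domains was 94.0% for OPC H3K27Ac, 98.0% for iOL H3K27Ac, 78.5% for OPC H3K4me3, 79.9% for iOL H3K4me3, 31.5% for iOL RNAPII, 2.68% for mOL Olig2 and 0% for iOL H3K9me3. An odds ratio no longer past the threshold was 0.244 for OPC H3K9me3. An odds ratio reversed in direction was 1.24 for OPC H3K27Ac. With the wider 50% of each other list, the share of domains was 75% for OPC H3K27Ac, 82.9% for iOL H3K27Ac, 59.2% for OPC H3K4me3, 61.7% for iOL H3K4me3, 75.8% for mOL H3K4me3, 3.80% for OPC RNAPII, 13.9% for iOL RNAPII, 41.6% for OPC Olig2, 57.3% for iOL Olig2, 2.72% for mOL Olig2 and 4.08% for mOL H3K9me3. An odds ratio no longer past the threshold was 0.352 for OPC H3K9me3. Odds ratios newly past the threshold were 0.408 for iOL H3K27Ac and 0.462 for mOL H3K9me3. With no Brg1 allowed within 10000 bp, an odds ratio no longer past the threshold was 1.99 for OPC RNAPII. Within 3 length classes, an odds ratio no longer past the threshold was 0.373 for OPC H3K9me3. Newly past the threshold was 1.58 for iOL RNAPII. In a logistic model with length and number of acetylated peaks, an odds ratio no longer past the threshold was 0.420 for OPC H3K9me3. An odds ratio newly past the threshold was 1.66 for iOL RNAPII. Within quartiles of mOL acetylated bases, an odds ratio no longer past the threshold was 0.437 for OPC H3K9me3. Newly past the threshold was 1.956 for iOL RNAPII. Within presence of mOL H3K4me3, an odds ratio no longer past the threshold was 1.69 for OPC RNAPII. Odds ratios newly past the threshold were 0.466 for OPC H3K27Ac and 0.333 for iOL H3K27Ac. Within presence of iOL Olig2, an odds ratio no longer past the threshold was 0.431 for OPC H3K9me3. With H3K27Ac lists cut to equal length in the same domains, the median covered was 19.7% in mOL. No paired analysis was possible because each target and stage had 1 library, and for the same reason no replicate could be left out. Depth is unknown, so an absent peak is a peak not called.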

Other observations

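Counts of long domains by chromosome are given without a test, for chromosomes picked after their counts were seen. Chromosome 12 held 21 Brg1-free domains (5.71%, 3.57 to 8.59) and 6 Brg1-holding ones (1.30%, 0.477 to 2.80), and chromosome 19 held 20 (5.43%, 3.35 to 8.27) and 8 (1.73%, 0.749 to 3.38). Chromosome 2 held 20 (5.43%, 3.35 to 8.27) and 51 (11.0%, 8.31 to 14.2), and chromosome 13 held 6 (1.63%, 0.601 to 3.51) and 22 (4.75%, 3.00 to 7.11). Unplaced sequence held 4 Brg1-free domains and no Brg1-holding one.

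The Brg1-free domains fell into 4 classes by H3K4me3 and Olig2 of any stage. Both were present in 226 domains (61.4%, 56.2 to 66.4), H3K4me3 without Olig2 in 81 (22.0%, 17.9 to 26.6), Olig2 without H3K4me3 in 54 (14.7%, 11.2 to 18.7) and neither in 7 (1.90%, 0.768 to 3.88). The Brg1-holding domains gave 289 (62.4%, 57.8 to 66.8), 10 (2.16%, 1.04 to 3.94), 161 (34.8%, 30.4 to 39.3) and 3 (0.648%, 0.134 to 1.88). The share with both was thus close in the 2 kinds of domain, and the intervals of the classes with only 1 of the features did not overlap. This split was made after the values had been seen and was not tested.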
